A study of Mus musculus with 12 samples.

Results

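The receptors for glutamate and GABA are the main fast and slow receivers of excitatory and inhibitory transmission in the hippocampus. 31 mouse genes for their subunits were chosen by name and looked up through their Ensembl identifiers in an RNA-Seq table of 18911 genes. 30 of the 31 had a row, and all 30 passed the minimum of more than 10 counts in total over the 12 libraries. Gabra5 was not analysed here. The 30 genes comprise 4 AMPA, 5 kainate, 6 NMDA, 6 metabotropic glutamate, 7 GABA-A and 2 GABA-B receptor subunits.

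The libraries came from neural progenitor cells (mNPCs) grown from the hippocampus of P0 pups on the C57BL/6J background, with 3 cultures for each of 4 genotypes. Kmt2a+/+ cells carried neither an LSL cassette nor Cre. Kmt2a+/LSL cells carried on one allele a loxP-flanked stop cassette in intron 1 of Kmt2a, a gene for a histone H3K4 methyltransferase, and had no Cre. Nes-Cre+/- Kmt2a+/+ cells carried 1 copy of a nestin-Cre transgene and no cassette, and Nes-Cre+/- Kmt2a+/LSL cells carried both. The nestin promoter drives Cre in neural precursors from mid gestation, so that the cassette is excised in the nervous system and not in the whole animal. The LSL line characterised by the study goes back to a single founder, and all mNPCs had been expanded in FGF-2, EGF and B27. The study calls its RNA-Seq replicates biological, but the sources do not say whether each culture came from its own pup. The p-values below therefore measure the spread between cultures, which may in part be technical.

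AMPA and kainate receptors are cation channels of 4 subunits that carry fast glutamate responses, and the kind of subunit sets their calcium permeability and kinetics. NMDA receptors need an obligatory subunit, encoded by Grin1, beside the modulating subunits encoded by the Grin2 and Grin3 genes. Metabotropic glutamate receptors and GABA-B receptors act through G proteins, while GABA-A receptors are pentameric chloride channels, usually built from alpha, beta and gamma subunits. In the developing hippocampus GABA is known to depolarise progenitors, and neural stem cells are known to carry several of these receptors before they form synapses.

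Levels are given as CPM, the estimated counts of a gene scaled to the TMM-adjusted size of its library. To compare one gene with another, CPM was divided by the length of the gene's longest coding transcript in kilobases. A gene was called detected when every library held at least 10 counts, and near the floor when at least 9 of the 12 libraries held 3 counts or fewer. The genes in between are called intermittent. Library totals lay between 18280008 and 28596919 counts, at which 3 counts correspond to 0.105 to 0.164 CPM, a limit that covers counting error only.

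The library of Kmt2a+/+ replicate 1 stood apart. Its median correlation with the other Kmt2a+/+ libraries was 0.903, against 0.939 to 0.984 for the remaining libraries within their genotypes. Its counts fell with GC content, by 2.30 on the log2 scale from transcripts of 41.7% GC to transcripts of 58.2% GC, while the trends of the other 11 libraries lay between -0.55 and 0.93. The counts of members from each test are therefore also given without it. Kmt2a, the targeted gene, was at 280.5 to 300.3 CPM in Kmt2a+/+, 165.8 to 166.6 CPM in Kmt2a+/LSL, 282.9 to 310.0 CPM in Nes-Cre+/- Kmt2a+/+ and 259.0 to 284.4 CPM in Nes-Cre+/- Kmt2a+/LSL, so that it was lowest in all 3 Kmt2a+/LSL libraries. All 9 neural progenitor markers reached 10 counts in every library and together came to 7049.6 to 15845 CPM, or at most 9776 CPM without Kmt2a+/+ replicate 1. All 6 astrocyte markers (1159.9 to 3281 CPM in sum), 6 of 8 oligodendrocyte lineage markers (1199.4 to 5560 CPM, and at least 3446 CPM without Kmt2a+/+ replicate 1) and 7 of 10 neuronal markers (1078.5 to 1998.7 CPM, mostly Map2) also did so. Among the neuronal markers, Stmn2 was at 0 in 4 libraries and had at most 8 counts, and Neurod1 had at most 11. None of the 3 microglial markers tested (at most 1.73 CPM in sum) or the 4 endothelial and mural markers tested (3.51 to 12.4 CPM) reached 10 counts in every library. In bulk RNA, fewer cells of a type and less RNA per cell cannot be told apart.

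22 of the 30 receptor genes were detected in every library, a share to be read beside 70.1% of the 17076 genes tested. The count was 23 without Kmt2a+/+ replicate 1. The detected genes were all 4 AMPA subunits, Grik2, Grik3, Grik4 and Grik5 among the kainate subunits, Grin1, Grin2b, Grin2c and Grin3a among the NMDA subunits, Grm3, Grm4 and Grm5 among the metabotropic receptors, Gabra4, Gabrb1, Gabrb2, Gabrg1 and Gabrg3 among the GABA-A subunits, and both GABA-B subunits. Grik1, Grin2d, Gabra3, Gabra2 and Grin2a were intermittent, and Grm7, Grm8 and Grm2 were near the floor.

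**Figure D1:**
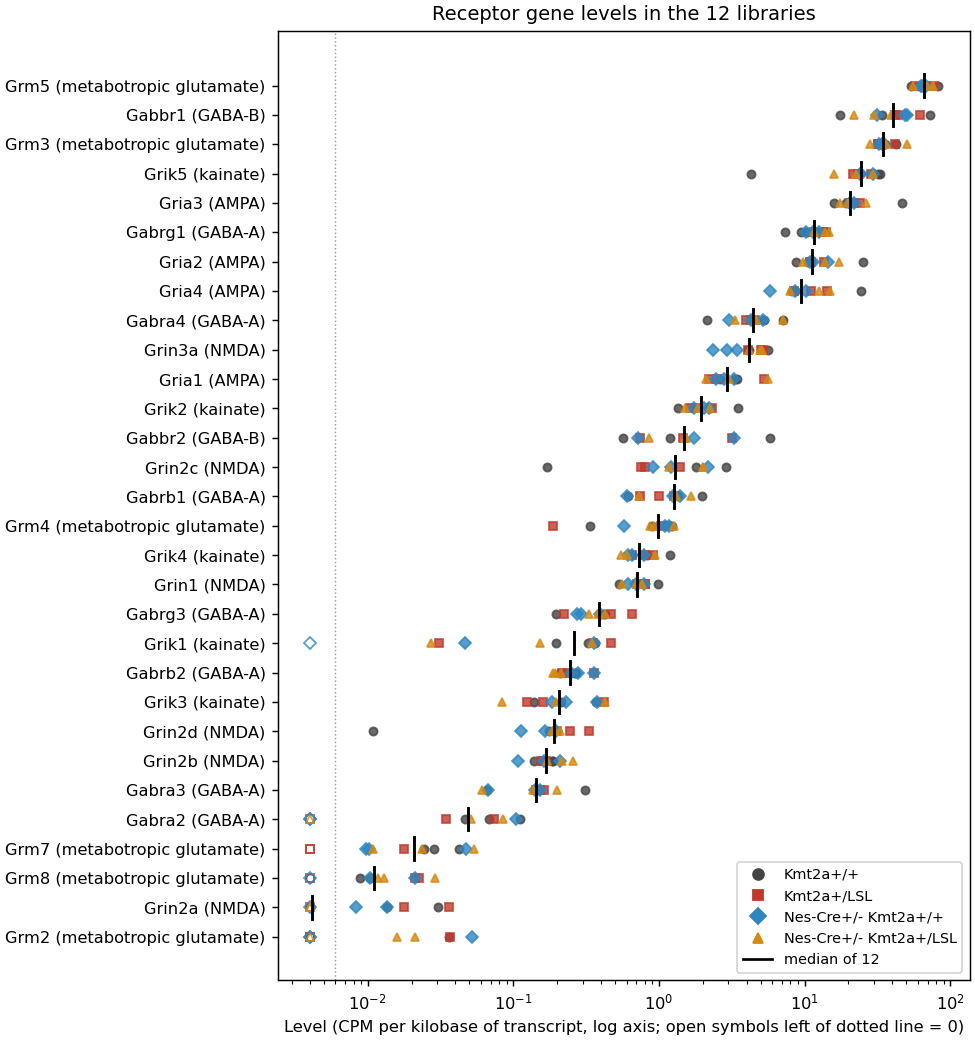
Level of each of the 30 receptor genes in the 12 libraries, in CPM per kilobase on a log axis; symbols are libraries by genotype, black bars are medians, and open symbols left of the dotted line are libraries at 0. Grm5 leads with a median of 65.9 CPM per kilobase and Grm2 is last with a median of 0.

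Grm5, the Gq-coupled metabotropic receptor that releases calcium from internal stores, had the highest level. Its level was 665.4, 492.8 and 430.6 CPM in Kmt2a+/+, 544.0, 625.1 and 463 CPM in Kmt2a+/LSL, 508.5, 546.5 and 516.3 CPM in Nes-Cre+/- Kmt2a+/+, and 612.3, 446.1 and 555.4 CPM in Nes-Cre+/- Kmt2a+/LSL. The 4 genotypes overlapped, and the highest library was only 1.55 times the lowest. Per kilobase its median of 65.9 CPM was above that of 94.5% of the 16926 tested genes with a transcript length.

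Gabbr1, the subunit of the GABA-B receptor that binds GABA, came next with a median of 40.4 CPM per kilobase. It measured 92.0, 378.8 and 179.6 CPM in Kmt2a+/+, 230.2, 325.3 and 217.8 CPM in Kmt2a+/LSL, 165.4, 264.1 and 256.6 CPM in Nes-Cre+/- Kmt2a+/+, and 115.1, 157.1 and 206.5 CPM in Nes-Cre+/- Kmt2a+/LSL. The 3 Nes-Cre+/- Kmt2a+/LSL libraries lay below all 3 Kmt2a+/LSL libraries, while the Kmt2a+/+ libraries spanned the whole range. Grm3, a Gi-coupled metabotropic receptor, had a median of 34.6 CPM per kilobase. Its libraries were at 99.7, 128.5 and 108.9 CPM in Kmt2a+/+, 97.9, 126.6 and 97.7 CPM in Kmt2a+/LSL, 99.1, 107.3 and 103.8 CPM in Nes-Cre+/- Kmt2a+/+, and 110.3, 86.0 and 153.2 CPM in Nes-Cre+/- Kmt2a+/LSL. The genotypes overlapped for Grm3, and its highest and lowest libraries both belonged to Nes-Cre+/- Kmt2a+/LSL.

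Grik5, which encodes a kainate receptor subunit that needs a partner from the Grik1 to Grik3 group to form a channel, had a median of 24.2 CPM per kilobase. It measured 16.2, 120.3 and 123.8 CPM in Kmt2a+/+, 80.8, 87.5 and 107.7 CPM in Kmt2a+/LSL, 90.1, 92.3 and 110.6 CPM in Nes-Cre+/- Kmt2a+/+, and 60.2, 111.6 and 84.4 CPM in Nes-Cre+/- Kmt2a+/LSL. The low value of 16.2 CPM is that of the library that stood apart. Gria3, an AMPA subunit gene on the X chromosome, followed with 20.4 CPM per kilobase. Its libraries were at 243.9, 82.7 and 99.7 CPM in Kmt2a+/+, 124.1, 104.6 and 112.9 CPM in Kmt2a+/LSL, 113.3, 106.2 and 106 CPM in Nes-Cre+/- Kmt2a+/+, and 138.1, 103.1 and 91.4 CPM in Nes-Cre+/- Kmt2a+/LSL. Here the same library was the highest of the 12, and the other 11 overlapped.

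Per kilobase, the range over libraries of each of these 5 genes overlapped that of its neighbour in the order. All 12 values of Gria3 lay above those of Gabrg1, the next gene, while Gabrg1, Gria2 and Gria4 overlapped. Below the 5 genes came Gabrg1 at 11.5, Gria2 at 11.2 and Gria4 at 9.42 CPM per kilobase. Gabra4 followed at 4.44, Grin3a at 4.13, Gria1 at 2.92, Grik2 at 1.94, Gabbr2 at 1.48, Grin2c at 1.298 and Gabrb1 at 1.26 CPM per kilobase. Grm4 (0.985), Grik4 (0.725), Grin1 (0.709), Gabrg3 (0.389), Gabrb2 (0.243), Grik3 (0.205) and Grin2b (0.169) were detected with less than 1 CPM per kilobase. Among the intermittent genes the medians were 0.261 CPM per kilobase for Grik1, 0.191 for Grin2d, 0.143 for Gabra3, 0.049 for Gabra2 and 0.0042 for Grin2a. With the union of all exons as the length, no gene moved by more than 4 ranks, but Grm3 came before Gabbr1, and the ranges of Gria3 and Gabrg1 overlapped.

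Within the AMPA class, Gria3 led in all 12 libraries, and in 10 of the 12 with the union of exons as the length, where Gria4 led in the other 2. It held a median of 45.3% of the summed level per kilobase (range over libraries 38.5% to 52.0%), Gria2 26.5% (20.8% to 29.1%), Gria4 21.3% (14.6% to 28.9%) and Gria1 6.38% (3.32% to 10.2%). GluA2, the product of Gria2, is the subunit whose edited form makes AMPA receptors largely impermeable to calcium. The class as a whole came to 37.2 to 62.2 CPM per kilobase in 11 libraries and to 100.03 in Kmt2a+/+ replicate 1, whose shares of Gria2, Gria3 and Gria4 nevertheless lay within the range of the others.

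The kainate class was made up almost wholly of Grik5, with a median share of 88.5%. The share of Grik5 in the other 11 libraries ranged from 85.02% to 92.2%, and in Kmt2a+/+ replicate 1 it was 56.2%. Grik2, whose product can form channels on its own or with that of Grik5, held a median of 6.84%, Grik4 2.95%, Grik1 0.777% and Grik3 0.693%.

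In the NMDA class, Grin3a was the most abundant transcript, with a median share of 61.1% (51.1% to 80.6%). With the union of exons as the length it led in 10 of the 12 libraries and Grin2c in the other 2. Its product is a glycine-binding subunit that lowers the calcium permeability and magnesium block of NMDA receptors. Grin2c held 21.8% (2.45% to 35.7%, and 11.6% to 35.7% without Kmt2a+/+ replicate 1), and the obligatory Grin1 held 10.2% (7.76% to 17.8%). Per kilobase, Grin3a was 2.98 to 8.88 times as high as Grin1 in the 12 libraries. Grin2d had a median share of 2.73%, Grin2b of 2.62% and Grin2a of 0.0648%. Grin2b and Grin2a are the subunits that dominate in forebrain neurons before and after synaptic maturation. Of the 31-base words in its transcripts, Grin1 shared 10.7%, Grin2a 12.1%, Grin2d 8.65% and Grm2 8.97% with other annotated genes, in part antisense ones, so the counts of these 4 genes are less certain. No other member shared more than 1.69%.

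Among the 6 metabotropic genes, Grm5 and Grm3 held 64.8% and 34.01% of the summed level, and Grm4 held 0.932%. The presynaptic receptors Grm7, Grm8 and Grm2 had at most 6 counts, 3 counts and 6 counts in any library. Grm2 was at 0 in 7 libraries, Grm8 in 3 and Grm7 in 2.

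The 7 GABA-A genes were led by Gabrg1, a gamma subunit, with a median of 67.1% of their summed level (49.7% to 75.1%). Gabra4 held 22.9% (16.9% to 37.6%) and Gabrb1 6.53% (3.72% to 10.7%), while Gabrg3, Gabrb2, Gabra3 and Gabra2 held medians of 2.01%, 1.32%, 0.755% and 0.309%. These shares refer to the 7 genes alone. Gabbr1 exceeded Gabbr2, which encodes the G protein-coupling partner in the GABA-B heterodimer, 12.4-fold to 59.6-fold per kilobase, with a median of 27.3-fold.

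**Figure D2:**
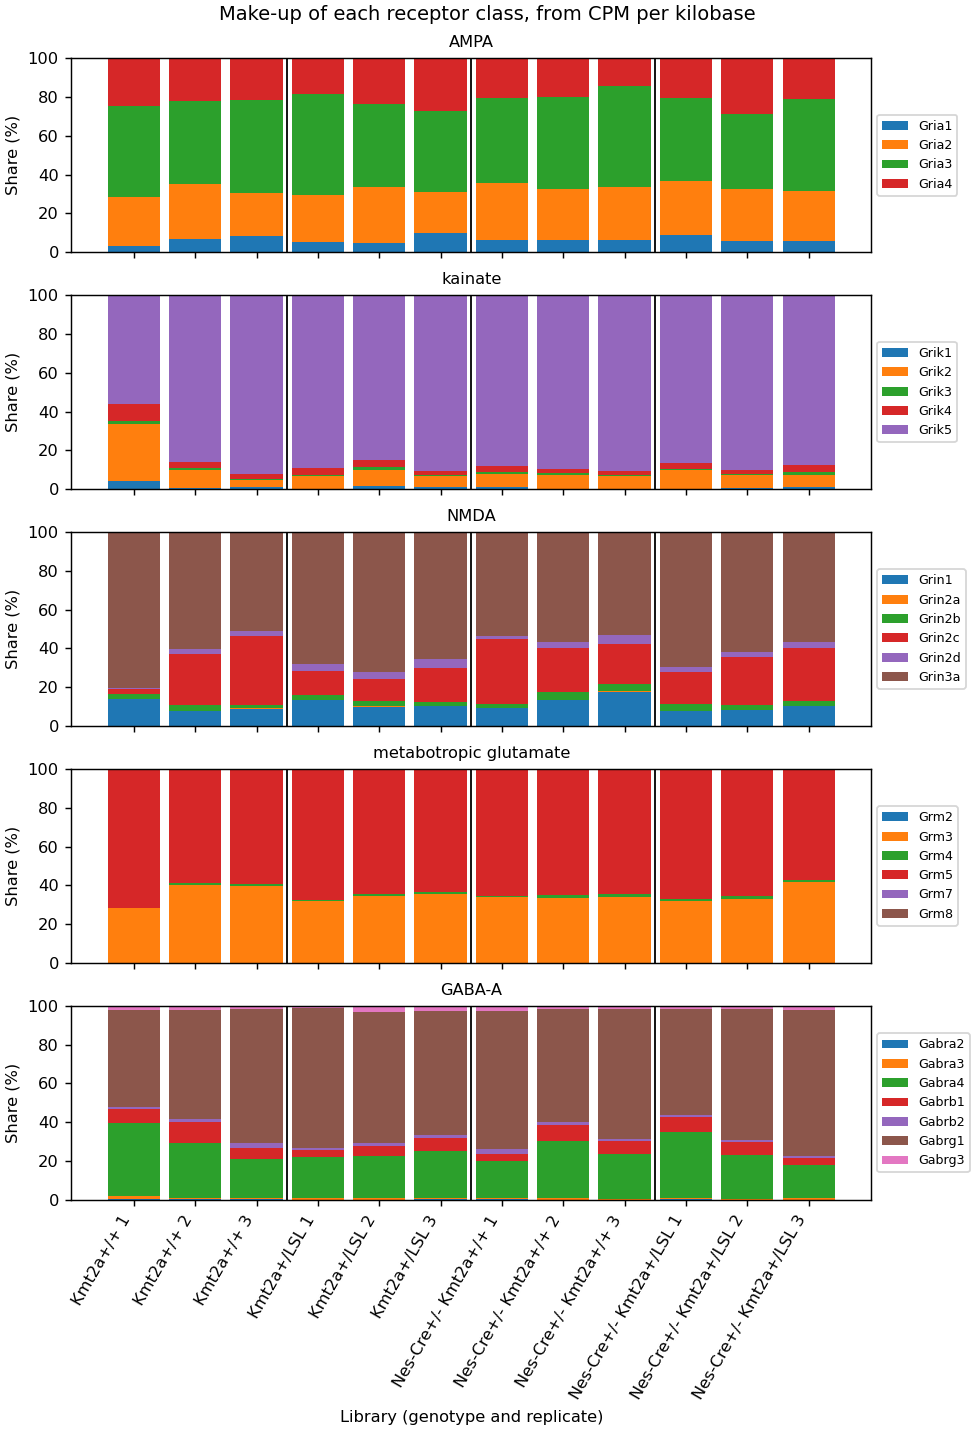
Share of each subunit in the summed CPM per kilobase of its receptor class, 1 bar per library, with vertical lines between genotypes; the GABA-A panel covers the 7 genes of the list. Grik5, Grin3a, Grm5 and Gabrg1 lead their classes in all 12 libraries with this length, and Kmt2a+/+ replicate 1 has the lowest Grik5 share (56.2%).

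4 of the GABA-A genes lie in one cluster on chromosome 5 (GRCm38), in the order Gabrg1 (70751047 to 70842617, minus strand), Gabra2 (70957597 to 71095849, minus), Gabra4 (71569749 to 71658308, minus) and Gabrb1 (71658113 to 72149037, plus). Gabra2 lies between expressed neighbours but had a median of 8 counts per library and was at 0 in 4 libraries. Its highest library had 15 counts, against 759 counts in the lowest library of Gabrg1 and 257 counts in the lowest of Gabra4. KMT2A carries a CXXC domain, which binds CpG dinucleotides that are not methylated, so CpG content was counted in the 250 bases before the start of each gene (RefSeq, GRCm38.p6). The windows of 3 members are shown, first Gabrg1 and Gabra2 from the chromosome 5 cluster, a detected and an intermittent gene, then Gria2 as a detected member from another class. They run 5′ to 3′ on the strand of the gene, with each CG in capitals.
Gabrg1, chr5:70842618-70842867, minus strand: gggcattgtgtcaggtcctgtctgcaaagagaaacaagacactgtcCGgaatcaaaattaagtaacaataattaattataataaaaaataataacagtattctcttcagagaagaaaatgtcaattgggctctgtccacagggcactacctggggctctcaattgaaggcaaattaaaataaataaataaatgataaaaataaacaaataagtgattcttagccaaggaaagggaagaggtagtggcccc
Gabra2, chr5:71095850-71096099, minus strand: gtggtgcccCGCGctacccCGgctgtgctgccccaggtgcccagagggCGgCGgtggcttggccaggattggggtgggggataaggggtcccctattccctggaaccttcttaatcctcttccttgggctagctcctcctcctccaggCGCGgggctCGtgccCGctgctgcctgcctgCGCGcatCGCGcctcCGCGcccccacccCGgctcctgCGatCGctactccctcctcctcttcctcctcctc
Gria2, chr3:80802836-80803085, minus strand: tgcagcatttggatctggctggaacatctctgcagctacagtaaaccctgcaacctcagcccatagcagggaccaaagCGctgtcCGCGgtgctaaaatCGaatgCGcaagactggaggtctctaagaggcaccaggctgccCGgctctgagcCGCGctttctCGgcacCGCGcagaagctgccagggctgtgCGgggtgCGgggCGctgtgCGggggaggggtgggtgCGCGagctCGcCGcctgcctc

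The window of Gabrg1 held 1 CG at 35.6% GC, that of Gabra2 held 18 at 70.0% GC, and that of Gria2 held 19 at 64.8% GC. CG reads the same on both strands, so 1 count serves both. The median over 27025 genes with a window was 6, and 40.2% of those genes had at least 10. Of the 22 receptor genes with a window and a row in the table, 14 had at least 10. The median was 16 for the 16 detected genes (1 to 42), 9 for 3 intermittent genes (0 to 18) and 16 for 3 genes near the floor (9 to 29). Grm8, near the floor, had 29, while Gabrg1, which was detected, had 1 and Gabra3, which was intermittent, had 0. A CG count is a description of the sequence and not a measure of binding.

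Whether loss of 1 Kmt2a copy changed these receptors was addressed by comparing Kmt2a+/LSL with Kmt2a+/+. In edgeR's quasi-likelihood test with Benjamini-Hochberg adjustment over all 17076 genes, which is the test for every adjusted p below, no receptor gene passed an adjusted p of 0.05, where 0% of all genes did. 1 of the 30 had an unadjusted p under 0.05, beside 1.79% of all genes. There were 2 without Kmt2a+/+ replicate 1 (Gabrg1 and Grin2c), beside 8.95% of all genes. The SE of the log2 fold change over the 22 detected members had a median of 0.37 (0.18 to 0.81), so a p above the threshold does not show that a level was the same. Limma-voom, DESeq2's Wald test and an empirical null, in which the z-scores of that test are divided by the width of their central part, also called 0 of the 30, beside 0.0117%, 0.041% and 0.187% of all genes. 12 members had a positive and 18 a negative log2 fold change, with a median of -0.07, beside a median of 0.00 over all genes. The split was 15 to 15 and the median -0.01 without Kmt2a+/+ replicate 1. For 3 members the 2 genotypes did not overlap, beside 4.05% of all genes: Grin2d and Gabrg1, which were higher in Kmt2a+/LSL, and Grm7, which was lower at no more than 3 counts per library.

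The member with the smallest unadjusted p was Gabrg1. It measured 45.1, 49.8 and 35.01 CPM in Kmt2a+/+, 64.4, 66.7 and 55.0 CPM in Kmt2a+/LSL, 54.2, 48.8 and 59.9 CPM in Nes-Cre+/- Kmt2a+/+, and 55.0, 65.9 and 70.0 CPM in Nes-Cre+/- Kmt2a+/LSL. All 3 Kmt2a+/LSL libraries lay above the Kmt2a+/+ libraries, but within the range of the 2 genotypes with nestin-Cre. Its mean was 43.3 ± 7.55 CPM (SD, n = 3) in Kmt2a+/+ and 62.0 ± 6.17 CPM (SD, n = 3) in Kmt2a+/LSL. Gabrg1 thus had a log2 fold change of 0.52 (SE 0.18, unadjusted p = 0.0147, adjusted p = 1.00), and the exact two-sided permutation test gave p = 0.1, the smallest value that 3 against 3 libraries allow. It was 0.55 (adjusted p = 0.551) without Kmt2a+/+ replicate 1. With counts corrected for GC content it was 0.33, and with that correction and without Kmt2a+/+ replicate 1 it was -0.06, so its direction turned only where both were changed together. Gabrg1 has the lowest GC content of the 30 transcripts, 35.3%.

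Removal of the cassette was addressed by comparing Nes-Cre+/- Kmt2a+/LSL with Kmt2a+/LSL. These groups also differ in the nestin-Cre transgene, so removal of the cassette and the transgene itself cannot be told apart here. No member passed the adjusted p of 0.05, where 0% of all genes did, and 1 had an unadjusted p under 0.05, beside 1.61% of all genes. There were 3 without Kmt2a+/+ replicate 1 in the fit (Grin2c, Gabbr1 and Grin2a), beside 3.89% of all genes, and with the GC correction, which scales each library by a curve of its counts on GC content, 2 (Grin2c and Grin2a), beside 2.51%. DESeq2's Wald test and limma-voom called 0 members, beside 0.041% and 0.0117% of all genes, and the empirical null called 4 (Gabbr1, Grin2a, Grin2b and Grm7), beside 5.53% of all genes. 15 members had a positive and 15 a negative log2 fold change, with a median of 0.00, as over all genes. The libraries did not overlap for 3 members, beside 7.1% of all genes: Grin2b was higher in Nes-Cre+/- Kmt2a+/LSL, and Gabrb2 and Gabbr1 were lower. The mean of Gabbr1 was 257.8 ± 58.8 CPM (SD, n = 3) in Kmt2a+/LSL and 159.6 ± 45.8 CPM in Nes-Cre+/- Kmt2a+/LSL, and the difference was -0.69 on the log2 scale (SE 0.43, adjusted p = 1.00, and 0.0316 with the empirical null). It was -0.71 without Kmt2a+/+ replicate 1 (SE 0.29, unadjusted p = 0.0338, adjusted p = 1.00). The astrocyte markers Gfap and Aqp4 were also lower in Nes-Cre+/- Kmt2a+/LSL, without overlap. Gfap was at 98.1 to 190.6 CPM in Kmt2a+/LSL and 52.6 to 87.7 CPM in Nes-Cre+/- Kmt2a+/LSL. Aqp4 was at 24.3 to 44.3 and 14.2 to 17.98 CPM. The other listed astrocyte markers overlapped, as did the sum of the list (1844 to 2458 and 1533 to 2188 CPM). The part of astrocyte RNA in the Gabbr1 difference was not tested. In the quasi-likelihood fit across all genes, Grin2a came first among the members (unadjusted p = 0.0306, adjusted p = 1.00). Grin2a had 0, 5 and 13 counts in Kmt2a+/+, 0, 13 and 6 counts in Kmt2a+/LSL, 3, 0 and 5 counts in Nes-Cre+/- Kmt2a+/+, and 0 in all 3 Nes-Cre+/- Kmt2a+/LSL libraries. 1 library of Kmt2a+/LSL was also at 0, so the groups overlapped. A floor of 3 counts over the Nes-Cre+/- Kmt2a+/LSL group would place Grin2a 5.84-fold below the 19 counts of Kmt2a+/LSL, with the 19 counts taken as exact. The 95% exact interval of the ratio of depth-scaled counts, which covers counting error in both groups, ran from 0 to 0.232. A difference smaller than 5.84-fold thus lies within counting error. Neither value covers the spread between cultures.

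The 2 genotypes with nestin-Cre differ in the LSL allele. In Nes-Cre+/- Kmt2a+/LSL against Nes-Cre+/- Kmt2a+/+, no member passed the adjusted p of 0.05, where 0% of all genes did. 1 had an unadjusted p under 0.05, beside 1.11% of all genes, and the libraries did not overlap for 2 (Grin3a, higher, and Gabrb2, lower), beside 6.68% of all genes. 21 members had a positive and 9 a negative log2 fold change, with a median of 0.16, beside 0.00 over all genes. Without Kmt2a+/+ replicate 1 in the fit the median was 0.15, and Grin3a was again the 1 member at an unadjusted p under 0.05, beside 3.23% of all genes. DESeq2's Wald test and limma-voom called 0 members, beside 0.0176% and 0% of all genes, and the empirical null called Grin3a, beside 1.53% of all genes. In Nes-Cre+/- Kmt2a+/+ against Kmt2a+/+, which compares the transgene alone, no member passed the adjusted p of 0.05, where 0% of all genes did. 1 had an unadjusted p under 0.05, beside 1.4% of all genes, and the libraries did not overlap for 1, beside 4.35% of all genes. The former count was again 1 without Kmt2a+/+ replicate 1, beside 6.09% of all genes. The Wald test, the empirical null and limma-voom called 0 members, beside 0.0176%, 0.041% and 0% of all genes. 9 members had a positive and 21 a negative log2 fold change, with a median of -0.16, beside 0.01 over all genes. Both comparisons use the 3 Nes-Cre+/- Kmt2a+/+ libraries.

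Grin3a was the member with the smallest unadjusted p in both. The gene lies on chromosome 4 (GRCm38, 49661611 to 49845744, minus strand), and none of its 31-base words occurs in another gene. It measured 42.0, 30.9 and 30.9 CPM in Kmt2a+/+, 30.6, 37.5 and 38.8 CPM in Kmt2a+/LSL, 25.7, 22.1 and 17.6 CPM in Nes-Cre+/- Kmt2a+/+, and 37.2, 38.1 and 30.96 CPM in Nes-Cre+/- Kmt2a+/LSL. The 3 Nes-Cre+/- Kmt2a+/+ libraries lay below all 9 others, a pattern in either direction found in 0.281% of all genes and in no other member. The corresponding shares were 0.457% for Kmt2a+/+, 0.363% for Kmt2a+/LSL and 0.445% for Nes-Cre+/- Kmt2a+/LSL, with 0 members each. The means were 34.6 ± 6.41, 35.6 ± 4.38, 21.8 ± 4.05 and 35.4 ± 3.87 CPM in the order of the genotypes above (SD, n = 3 each).

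For Grin3a the log2 fold change was 0.70 (SE 0.21, unadjusted p = 0.00574, adjusted p = 1.00) in Nes-Cre+/- Kmt2a+/LSL against Nes-Cre+/- Kmt2a+/+. It was -0.66 (SE 0.21, unadjusted p = 0.00774, adjusted p = 1.00) in Nes-Cre+/- Kmt2a+/+ against Kmt2a+/+. The exact two-sided permutation test gave p = 0.1 for each, its smallest value. Among the other 9 libraries, the 3 genotypes overlapped for Grin3a. Without Kmt2a+/+ replicate 1 the difference between the Kmt2a+/+ genotypes was -0.50. The ranges of the marker sums in Nes-Cre+/- Kmt2a+/+ lay within the range of the other 9 libraries for the progenitor list (7756 to 8143 CPM), the oligodendrocyte list (4039 to 4941 CPM) and the neuronal list (1317.7 to 1440.1 CPM), with or without Kmt2a+/+ replicate 1. The astrocyte list (1357 to 2535 CPM) lay within that range only with Kmt2a+/+ replicate 1, since the lowest of the other 8 libraries was at 1533 CPM. The part of astrocyte RNA in the Grin3a result was not tested.

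**Figure D3:**
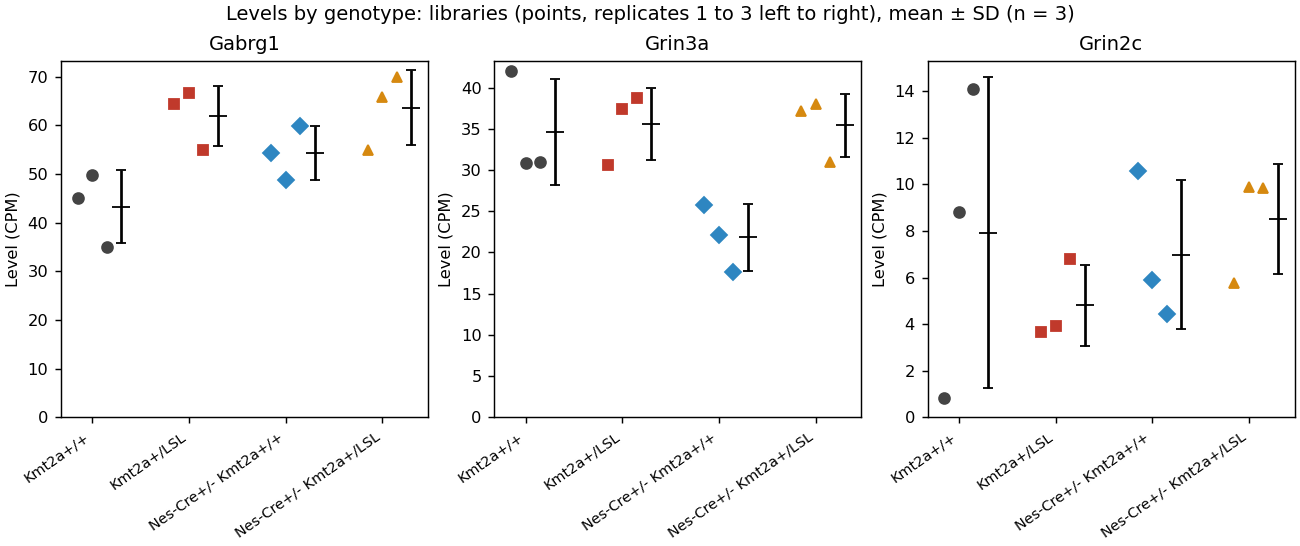
Level in CPM of Gabrg1, Grin3a and Grin2c by genotype, with points for the 3 libraries (replicates 1 to 3 from left to right) and the mean ± SD beside them. Grin3a is lower in the 3 Nes-Cre+/- Kmt2a+/+ libraries than in the other 9. Gabrg1 has its lowest mean in Kmt2a+/+, whose libraries overlap those of Nes-Cre+/- Kmt2a+/+. The Grin2c level of 0.833 CPM is that of Kmt2a+/+ replicate 1. None of these genes passed the adjusted p of 0.05.

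Set against the mean of the 3 other genotypes, Kmt2a+/LSL had no member at an adjusted p under 0.05, beside 0.00586% of all genes, and 0 at an unadjusted p under 0.05, beside 1.2%. This count depends on the processing. It was 2 without Kmt2a+/+ replicate 1, beside 2.87% of all genes, namely Grin2c (log2 difference -0.87, SE 0.32, unadjusted p = 0.0193, adjusted p = 1.00) and Grin3a (0.31, SE 0.13, unadjusted p = 0.0383, adjusted p = 1.00). It was 2 with the GC correction (Grin2d and Grin2c, beside 2.07%) and 3 with both (Grin2d, Grin2c and Grin3a, beside 3.28%). The Wald test, the empirical null and limma-voom called 0 members, beside 0.0234%, 2.57% and 0.0234% of all genes. The smallest p was that of Grin2a (unadjusted p = 0.0798, adjusted p = 1.00), whose counts are given above, and no member had its 3 Kmt2a+/LSL libraries all above or all below the other 9. Grm7, a presynaptic receptor near the floor, had 2 counts in Kmt2a+/LSL and 25 in the other 9 libraries, a ratio of 0.229 of their depth-scaled counts with a 95% exact interval of 0.0262 to 0.917 for counting error. Grm7 is named after its values were seen, and in the fit across all genes it had an unadjusted p of 0.0802 and an adjusted p of 1.00.

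The difference between the LSL effect with and without nestin-Cre gave no member at an adjusted p under 0.05, where 0% of all genes passed, and 1 member at an unadjusted p under 0.05, beside 1.73% of all genes. The Wald test, the empirical null and limma-voom called 0 members, beside 0.0586%, 0.0996% and 0% of all genes. The 1 member was Grin3a, at a log2 difference of 0.66 (SE 0.29, unadjusted p = 0.0441, adjusted p = 1.00). Without Kmt2a+/+ replicate 1 it was 0.49 (unadjusted p = 0.0682), and the 1 member under 0.05, beside 3.31% of all genes, was Grin2c, at 1.54 (SE 0.54, unadjusted p = 0.0162, adjusted p = 0.995) against 1.02 (SE 0.99, unadjusted p = 0.328) with all libraries. In the test for any difference among the 4 genotypes, no member passed the adjusted p of 0.05, where 0% of all genes did, and DESeq2's likelihood ratio test and limma-voom called 0 members as well, beside 0.0293% and 0.0117% of all genes. 2 members had an unadjusted p under 0.05, beside 1.15% of all genes. They were Grin3a (unadjusted p = 0.0166, adjusted p = 1.00) and Gabrg1 (unadjusted p = 0.0409, adjusted p = 1.00), and the same 2 without Kmt2a+/+ replicate 1, beside 5.35% of all genes.

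The GC correction changed which members lay under an unadjusted p of 0.05. In Kmt2a+/LSL against Kmt2a+/+ it left 1 (Grin2d), beside 3.77% of all genes, and 3 when Kmt2a+/+ replicate 1 was also left out (Grin2c, Grin1 and Grik2), beside 4.29%. With both changes there were 3 (Grin2c, Gabbr1 and Grin2a) in Nes-Cre+/- Kmt2a+/LSL against Kmt2a+/LSL, beside 4.83%. Grin3a was the 1 member in Nes-Cre+/- Kmt2a+/LSL against Nes-Cre+/- Kmt2a+/+ with the correction alone, beside 1.86%, and with both changes, beside 3.86%. It was also the 1 member in Nes-Cre+/- Kmt2a+/+ against Kmt2a+/+ with the correction alone, beside 3.07%, and Grik2 joined it with both changes, beside 3.28%. For the difference of LSL effects, Grin2c and Grin3a passed with the correction alone, beside 2.95%, and with both changes, beside 3.27%. In the test for any difference, Grin3a passed with the correction alone, beside 1.93%, and Grin2c and Grin3a with both changes, beside 3.7%.

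The spread between libraries of a genotype was large for several members. Over the 22 detected genes, Grm5 varied least (1.55-fold from lowest to highest library) and Grin2c most (16.9-fold, or 3.84-fold without Kmt2a+/+ replicate 1). Gabbr2 varied 10.2-fold. Without that library Gabbr2 varied most (8.12-fold), and Grm4 (6.74-fold) and Grik3 (5.13-fold) also varied more than Grin2c. Gabbr2 measured 3.27, 33.4 and 6.80 CPM in Kmt2a+/+, 4.24, 18.2 and 8.45 CPM in Kmt2a+/LSL, 4.11, 9.96 and 18.9 CPM in Nes-Cre+/- Kmt2a+/+, and 4.93, 8.84 and 8.62 CPM in Nes-Cre+/- Kmt2a+/LSL. The lowest library of each genotype lay between 3.27 and 4.93 CPM and was replicate 1 in all 4. Grik5 and Grin2d also had replicate 1 as the lowest library of all 4 genotypes, beside 7.17% of all genes. Replicate 2 was lowest in all 4 genotypes for 0 members, beside 0.779% of all genes, and replicate 3 for 1 (Gria2), beside 1.82%. Grin2c, a subunit gene with 62.1% GC, measured 0.833, 8.83 and 14.1 CPM in Kmt2a+/+, 3.67, 3.94 and 6.81 CPM in Kmt2a+/LSL, 10.6, 5.90 and 4.45 CPM in Nes-Cre+/- Kmt2a+/+, and 5.78, 9.89 and 9.85 CPM in Nes-Cre+/- Kmt2a+/LSL. Gabbr2 and Grin2c are described here after their values were seen, Grin2c because its comparison moves with single Kmt2a+/+ libraries. In Kmt2a+/LSL against Kmt2a+/+ its log2 fold change was -0.73 (SE 0.70, adjusted p = 1.00). Without Kmt2a+/+ replicate 1 it was -1.26 (SE 0.40, unadjusted p = 0.00917, adjusted p = 0.551), without Kmt2a+/+ replicate 3, the highest of the 12, it was -0.02 (adjusted p = 0.994), and with the GC correction in all libraries -0.72 (SE 0.35, adjusted p = 0.966).

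**Figure D4:**
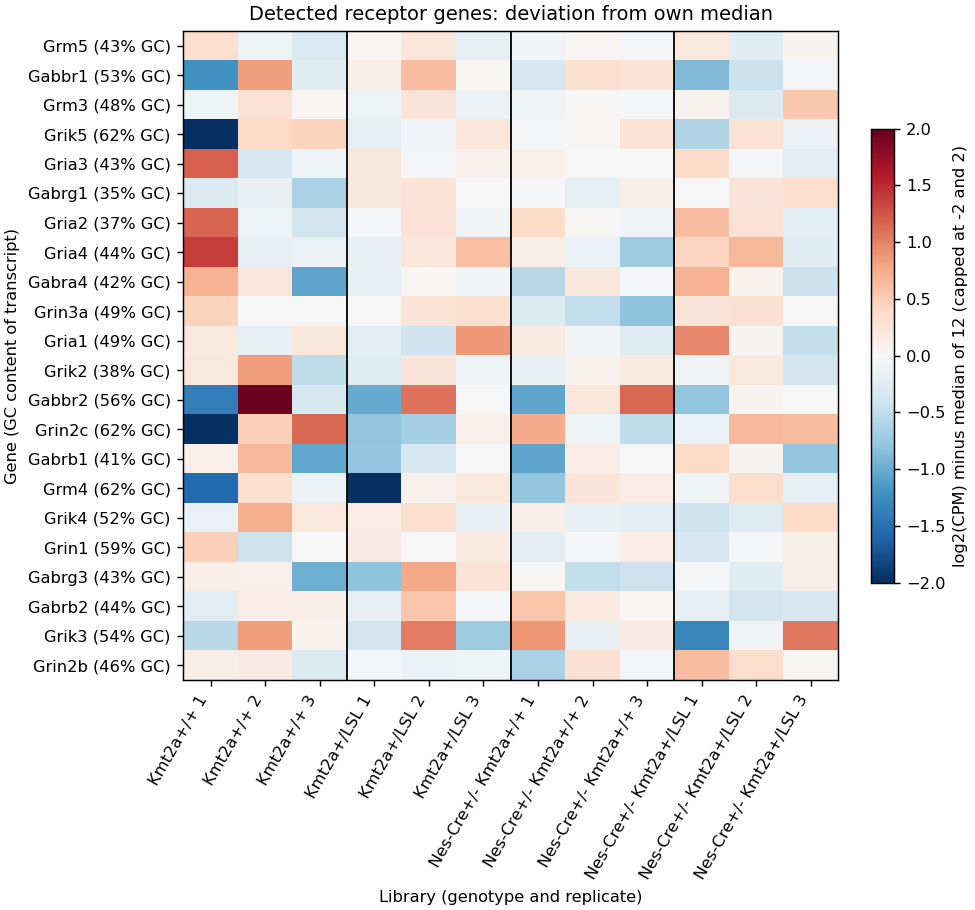
Deviation of log2(CPM) from the median of the 12 libraries for the 22 detected genes, ordered by level, with the GC content of each transcript beside the name; red is above and blue below the median, and colours are capped at -2 and 2. The column of Kmt2a+/+ replicate 1 is the most strongly coloured, with Grik5, Grin2c, Grm4, Gabbr1 and Gabbr2 low and Gria2, Gria3 and Gria4 high.

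In Kmt2a+/+ replicate 1, the deviation of a receptor gene followed its GC content. Grin2d (65.0% GC) stood at 0.0567, Grin2c at 0.122, Grik5 (62.3% GC) at 0.176 and Gabbr1 (53.0% GC) at 0.422 times the median of the other 11 libraries. Gria2 (36.8% GC), Gria3 (43.0% GC) and Gria4 (44.3% GC) stood at 2.28, 2.31 and 2.86 times it. Over the 22 detected genes, Pearson's r between GC content and the log2 difference was -0.73 and Spearman's rho -0.58, across genes of a single library, which are not independent. Over 11622 genes with a mean of at least 50 counts, r was -0.67 and rho -0.79. Grin1 (59.4% GC) went against this order at 1.40 times the other libraries, as did Gabrg1 (35.3% GC) at 0.821.

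**Figure D5:**
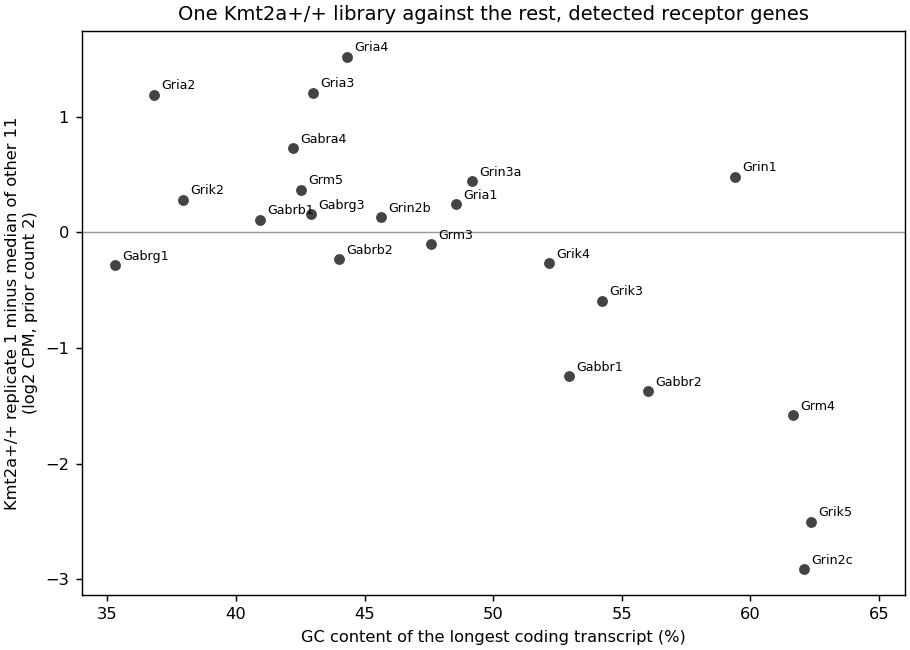
Log2 difference of Kmt2a+/+ replicate 1 from the median of the other 11 libraries (prior count 2) against the GC content of the transcript, 1 point for each of the 22 detected genes. Grm4, Grik5 and Grin2c, the most GC-rich of them, lie lowest, and Gria2, Gria3 and Gria4 lie highest.

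2 pairs of members with a known tie are described across the 12 libraries on the log2 scale. They were picked after their values had been seen, so no test is given. Gabra4 and Gabrb1 are divergent genes whose exons share 46 bases in all on opposite strands. Their transcripts have no 31-base word in common. Their levels had Pearson's r of 0.84 and Spearman's rho of 0.92. After leaving out Kmt2a+/+ replicates 1 and 3, which lie farthest from the median of Gabra4, r was 0.86, as it was without Kmt2a+/+ replicate 1 alone, and it was 0.85 for the deviations from the genotype means. Gabbr1 and Gabbr2, whose products form the GABA-B heterodimer and which lie on chromosomes 17 and 4, had r of 0.82 and rho of 0.77. Leaving out Kmt2a+/+ replicate 1 and Nes-Cre+/- Kmt2a+/LSL replicate 1 gave r of 0.79, leaving out the former alone 0.78, and the deviations from the genotype means 0.89. Over all 231 pairs of the 22 detected members the median r was 0.09 (-0.94 to 0.85), and 4 of the pairs, these 2 included, reached the r of Gabbr1 and Gabbr2. All pairs share the libraries, with their GC trends and depths. Each genotype holds 3 libraries, too few for a value of its own.

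4 lists of genes chosen for a tie to these receptors were examined in the same fit, 70 genes of which 62 were tested. None had an adjusted p under 0.05 in any of the 7 comparisons. Over the 6 directed comparisons, 1 of the 62 had an unadjusted p under 0.05 in 1 of them, where 1.61% of all genes did. This was Homer2, which encodes a scaffold that links group I metabotropic receptors to calcium stores, in Nes-Cre+/- Kmt2a+/LSL against Kmt2a+/LSL. Homer2 measured 39.7, 49.6 and 43.2 CPM in Kmt2a+/LSL and 59.5, 57.1 and 62.0 CPM in Nes-Cre+/- Kmt2a+/LSL, without overlap, as for 7.1% of all genes (log2 fold change 0.43, SE 0.18, unadjusted p = 0.0346, adjusted p = 1.00). 4 of 11 further receptor subunits tested were detected in every library, led by Grid1 with a median of 9.56 CPM per kilobase.

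16 of 20 genes tested in the list of auxiliary subunits were detected, led by Shisa4 (84.0 CPM per kilobase), Clptm1 (37.5) and Cacng7 (32.6). A place in this list does not show a role at these receptors, and none is shown here for Shisa4. Clptm1 retains GABA-A receptors inside the cell, and Cacng7 is a transmembrane AMPA receptor regulator. 16 of 18 scaffold genes were detected, led by Nlgn2 (34.8 CPM per kilobase), Gphn (25.6) and Homer3 (23.8). Nlgn2 and Gphn encode the adhesion and scaffold proteins of inhibitory synapses. 12 of 13 genes of transmitter synthesis and transport were detected, and the leading ones were those that clear transmitter: Slc1a3, a glutamate transporter (505.5 CPM per kilobase), Slc6a11, a GABA transporter (283.7) and Glul, glutamine synthetase (262.3). All 3 were above Grm5, the highest receptor gene, in median level per kilobase.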

How the data were processed

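Poly(A) RNA from 12 mNPC cultures, 3 for each of 4 genotypes, was sequenced by the authors, who pseudoaligned the reads with kallisto 0.48.0 to the mm10 (GRCm38) transcriptome and summed transcripts per gene. The deposited table holds estimated counts per gene for 18911 genes, as whole numbers with no normalisation. The tests are made for counts, and the estimated counts, being whole, entered them without rounding. Ensembl identifiers were matched to symbols of the GRCm38 annotation (18718 matched), and genotypes were taken from the sample labels.

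The 17076 genes above 10 counts in sum that were present in at least 2 libraries were normalised with TMM and fitted in 1 model of all 12 libraries, with genotype as the only term, by edgeR 4.0.16 (quasi-likelihood F-test, two-sided, R 4.3.3). A gene was called at an adjusted p under 0.05 (Benjamini-Hochberg). The prior count of log2 values was 2. The depth of 18280008 to 28596919 counts sets the precision of low genes, and intervals cover counting error only. The fits were tested on simulated data.

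Alternatives were DESeq2 1.42.0 (size factors, the Wald or likelihood ratio test, and an empirical null fitted to the central 75% of z-scores in place of the fdrtool step of the study), limma-voom (limma 3.58.1) with quality weights, a robust fit, other filters, the replicate number as a block, 9 libraries without Nes-Cre+/- Kmt2a+/+, an adjusted p under 0.1 and each library left out. The GC-content offset (loess span 0.5) and the class leaders by union of exons were added after seeing the data. So were the counts of members at an unadjusted p under 0.05 without Kmt2a+/+ replicate 1. Per-library values are given for the 6 genes highest per kilobase and for up to 4 members per comparison with the smallest unadjusted p under 0.05, or the 1 smallest, and for members whose Kmt2a+/LSL libraries lie outside the other 9. Exceptions are named. The members and lists were chosen with earlier results of these data known. Sequences are from RefSeq (GRCm38.p6). Isoforms and chromatin data were not analysed here. Values of some related genes are not reported here.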

Additional observations from a re-analysis of the deposited data

How the results depend on the processing

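No receptor gene was called in any of the 7 comparisons, and 168 of 170 alternatives to these counts also gave 0. Both exceptions came from the empirical null: 4 members in Nes-Cre+/- Kmt2a+/LSL against Kmt2a+/LSL (945 genes in all) and 1 in Nes-Cre+/- Kmt2a+/LSL against Nes-Cre+/- Kmt2a+/+ (261 genes in all). In Kmt2a+/LSL against Kmt2a+/+ the main test called 0 of all 17076 genes, the Wald test 7 and the empirical null 32. Agreement between settings that call almost no genes does not show that the levels of the members were unchanged. Leaving out each library in turn gave 0 members in every comparison. The replicate number as a block gave 0 members in every comparison, alone or with the GC correction. Same-numbered libraries of 2 genotypes had a mean correlation of deviations of 0.084 (-0.072 to 0.42 over 18 pairs, 5 of them over 0.1), against -0.041 for different numbers, and 6 of 12 libraries correlated best with their own number. The mean was 0.15 for replicate 1, so some genes moved with the number, but not every pair did and the numbers were not taken as pairs. Among log2 fold changes of single members, Gabrg1 in Kmt2a+/LSL against Kmt2a+/+ turned from 0.52 to -0.055 with the GC correction and without Kmt2a+/+ replicate 1 together, and lay between 0.39 and 0.63 when single libraries were left out. The cause was not tested. Grin2c in the same comparison lay between -1.26 without Kmt2a+/+ replicate 1 and -0.02 without Kmt2a+/+ replicate 3. Gabbr1 in Nes-Cre+/- Kmt2a+/LSL against Kmt2a+/LSL lay between -0.92 and -0.49. Grin3a kept its sign in every alternative, between 0.57 and 0.83 against Nes-Cre+/- Kmt2a+/+ (adjusted p from 5.39e-06 to 1.00), between -0.80 and -0.50 in Nes-Cre+/- Kmt2a+/+ against Kmt2a+/+ (0.484 to 1.00), and between 0.49 and 0.79 in the difference of LSL effects (0.792 to 1.00). The adjusted p of Gabrg1 ran from 0.253 to 1.00. A minimum of 1 CPM in every library left 18 detected members. With the union of exons 27 of 30 levels fell, 7 by more than the replicate SD. Depth limits the 3 genes near the floor, since 3 counts correspond to 0.105 to 0.164 CPM.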
